A study of Homo sapiens with 10 samples.

Results

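The genes described are 7 components of transforming growth factor β (TGFβ), activin and bone morphogenetic protein (BMP) signalling: the ligand genes TGFB1, TGFB2, INHBA and BMP4, the receptor genes TGFBR1 and TGFBR2, and SMAD4. They were chosen by name, with earlier results of these data known. Every probe set that the platform annotation gives to 1 of the 7 symbols was kept as a separate measurement. This gave 18 of the 25750 probe sets in the deposited table, for 7 of 12083 genes that have a probe set of their own, namely 2 for TGFB1, 5 for TGFB2, 3 for INHBA, 1 for BMP4, 2 for TGFBR1, 2 for TGFBR2 and 3 for SMAD4. A probe set is a group of short probes on the array that read 1 stretch of a transcript. Its brightness depends on its probes, so brightness served only to pick 1 probe set per gene where a gene has several, and levels were compared between subsets.

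RNA was measured in MDA-MB-231, a basal and mesenchymal line of human breast cancer derived from a metastatic site. All cells carried the reporter pEGFP1-Oct3/4, in which the promoter of Oct4A drives green fluorescent protein (GFP), and all were selected with neomycin as stable transfectants, so the 3 subsets differ in the GFP gate and not in allele or agent. The breast cancer cells (BCCs) with the top 5% of GFP were collected as Oct4hi BCCs (4 arrays), those with the bottom 5% as Oct4low BCCs (4 arrays), and cells between the 2 gates as Oct4med BCCs (2 arrays). The results text of the study names a wider gate for Oct4low BCCs than the labels and methods, which are followed here. The gates rest on reporter fluorescence in a single line, and the transcript of Oct4 itself was not analysed here.

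TGFβ and activin ligands are secreted dimers that bind a type II receptor kinase, which then activates a type I receptor kinase. The type I receptor phosphorylates receptor-regulated SMAD proteins, and these enter the nucleus with SMAD4, the partner that TGFβ, activin and BMP signals share. In breast carcinoma cells TGFβ is known both for arrest of epithelial growth and for epithelial-mesenchymal transition, while BMPs act through other receptors and induce the ID genes.

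Values are log2 intensities, on which a difference of 1 is a doubling. Across the 10 arrays the median probe set lay between 5.05 and 5.14, and 13872 probe sets at or above the median of their array in at least 2 arrays were tested. Of the 18 probe sets, 15 were tested, and each of these reached the array median in arrays of all 3 subsets. The other 3 (TGFBR1 206943_at, SMAD4 202526_at and SMAD4 1565703_at) were below it in all 10 arrays. All differences were tested with limma in 1 model of the 3 subsets, and p-values were adjusted over all tested probe sets, with a threshold of 0.05. The methods describe cells sorted into the 3 subsets, with RNA isolated in separate experiments, so subsets may share an experiment. The labels call the samples biological replicates without tying an array to a culture or sort, and the model treats them as unpaired. Each p-value is set against the spread of these arrays. In sorted populations, fewer cells that express a gene and less RNA per cell cannot be told apart.

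Of the 7 markers listed for the line, 5 are in the table. CD44 (10.83 to 11.29 on the log2 scale), CAV1 (11.99 to 12.43) and ANXA1 (12.17 to 12.89) were bright in all arrays, whereas the probe sets of VIM and MSN in the table were dim. The epithelial cadherin gene CDH1 lay between 3.81 and 4.39, and PTPRC, which defines leukocytes, between 2.85 and 3.27. Other luminal markers were brighter: MLPH read 8.31 to 9.30, EPCAM 7.73 to 8.11, GATA3 6.71 to 7.72, ESR1 5.72 to 6.24 and TFF1 5.00 to 6.81. PGR was dim (3.12 to 3.52). Of the leukocyte list, CD3E read 5.08 to 5.69 and CD14 4.76 to 5.58, while LYZ was dim (2.96 to 3.39). The 3 tested line markers were lower in Oct4hi than in Oct4low BCCs, and the summed linear intensity of the 5 was 14815 to 15643 per Oct4low array, 13495 to 13578 per Oct4med array and 10740 to 10985 per Oct4hi array. Of 10 erythroid markers 3 are in the table and 2 were tested. HBE1, an embryonic globin, had mean levels of 7.21 in Oct4low, 7.89 in Oct4med and 7.95 in Oct4hi arrays, and it rose in both subsets against Oct4low, while GATA1 did not pass. The erythroid sum was 215 to 238 in Oct4low, 319 to 325 in Oct4med and 312 to 349 in Oct4hi arrays. Of 7 leukocyte markers 4 are in the table (sums of 97 to 118, 88 to 105 and 87 to 106 in the same order) and of 7 stromal markers 6 (531 to 645, 505 to 516 and 563 to 594), and none of either list passed between Oct4hi and Oct4low BCCs. Of 12 luminal markers 7 are in the table (1208 to 1264, 1081 to 1085 and 849 to 898), and GATA3, TFF1 and MLPH fell in Oct4hi against Oct4low BCCs. Whether these shifts take part in the results below was not tested.

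The promoters of the 3 ligand genes with a single start site in the RefSeq table are shown because their transcripts moved in different directions in Oct4hi BCCs: TGFB2 and INHBA rose, and TGFB1 fell in 1 of its probe sets. All 7 genes have an entry in that table. The 250 bases before the start site are given 5′ to 3′ on the strand of the gene, in build GRCh38.p14. Capitals mark each TATAAA on either strand, a match to the core of a TATA box wherever it lies. They also mark each TGACG on either strand, a match to the core of a cyclic AMP response element. The TGFB2 window is chr1:218345086-218345335 on the plus strand, that of INHBA is chr7:41703091-41703340 on the minus strand, and that of TGFB1 is chr19:41353923-41354172 on the minus strand.
TGFB2: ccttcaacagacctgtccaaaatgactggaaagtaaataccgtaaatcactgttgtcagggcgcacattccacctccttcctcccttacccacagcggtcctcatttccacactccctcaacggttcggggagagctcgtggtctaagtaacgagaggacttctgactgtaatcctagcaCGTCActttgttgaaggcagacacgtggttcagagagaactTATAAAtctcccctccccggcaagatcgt
INHBA: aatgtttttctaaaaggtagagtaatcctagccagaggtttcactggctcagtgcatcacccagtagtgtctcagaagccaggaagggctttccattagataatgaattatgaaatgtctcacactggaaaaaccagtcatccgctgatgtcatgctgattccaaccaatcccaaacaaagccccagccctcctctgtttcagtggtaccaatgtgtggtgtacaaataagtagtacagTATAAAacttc
TGFB1: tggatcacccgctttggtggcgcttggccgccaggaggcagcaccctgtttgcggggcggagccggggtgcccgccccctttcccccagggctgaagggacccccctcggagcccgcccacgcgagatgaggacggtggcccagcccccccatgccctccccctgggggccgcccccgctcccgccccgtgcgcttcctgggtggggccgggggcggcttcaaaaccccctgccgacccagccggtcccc

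TATAAA was found in the windows of TGFB2 (beginning 29 bases before the start site) and INHBA (11 bases before it), and not in that of TGFB1. It occurs on either strand in 10.7% of all 35116 windows of this length. TGACG was found once, in the TGFB2 window, and it occurs in 21.2% of all windows. CAGAC, a SMAD-binding sequence, was found 2 times in the TGFB2 window and in 38% of all windows, and TGANTCA, which AP-1 factors bind, was in none of the 3 windows and in 6.57% of all. The guanine and cytosine content was 50.4% for TGFB2, 42.8% for INHBA and 76.8% for TGFB1, beside a median of 58% over all windows. These are matches of letters and not measured binding. Whether any match works at these start sites, or has a part in the direction of change, was not tested. BMP4, which has 3 start sites in RefSeq, is not shown.

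Between Oct4hi and Oct4low BCCs, the ligand genes moved in opposite directions. INHBA and TGFB2 transcripts rose by 1.41- to 2.88-fold in 7 of 8 probe sets, BMP4 fell 2.17-fold, and TGFB1 fell 1.32-fold in 1 of its 2 probe sets. The rise of 2.88-fold is that of TGFB2 209908_s_at, which lay near the array medians in Oct4low BCCs, and the next largest was 1.76-fold. TGFBR1 and TGFBR2 each fell in 1 probe set, and SMAD4 rose 1.26-fold at the edge of the threshold. Of the 15 tested probe sets, 12 (80%) passed, 8 higher and 4 lower, against 34.9% of all tested probe sets (18.2% higher and 16.7% lower). All 7 genes had at least 1 probe set past the threshold. The median size of the log2 change was 0.57 over the 15 probe sets and 0.19 over all tested ones, and the median change was 0.33 and -0.0044. The arrays of the 2 subsets did not overlap for 11 of the 15, against 33.8% of all tested probe sets. The 7 genes were chosen with earlier results of these data known, and TGFB2 and INHBA hold 8 of the 15 tested probe sets. The shares above are therefore no test of the 7 genes as a group.

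**Figure D1:**
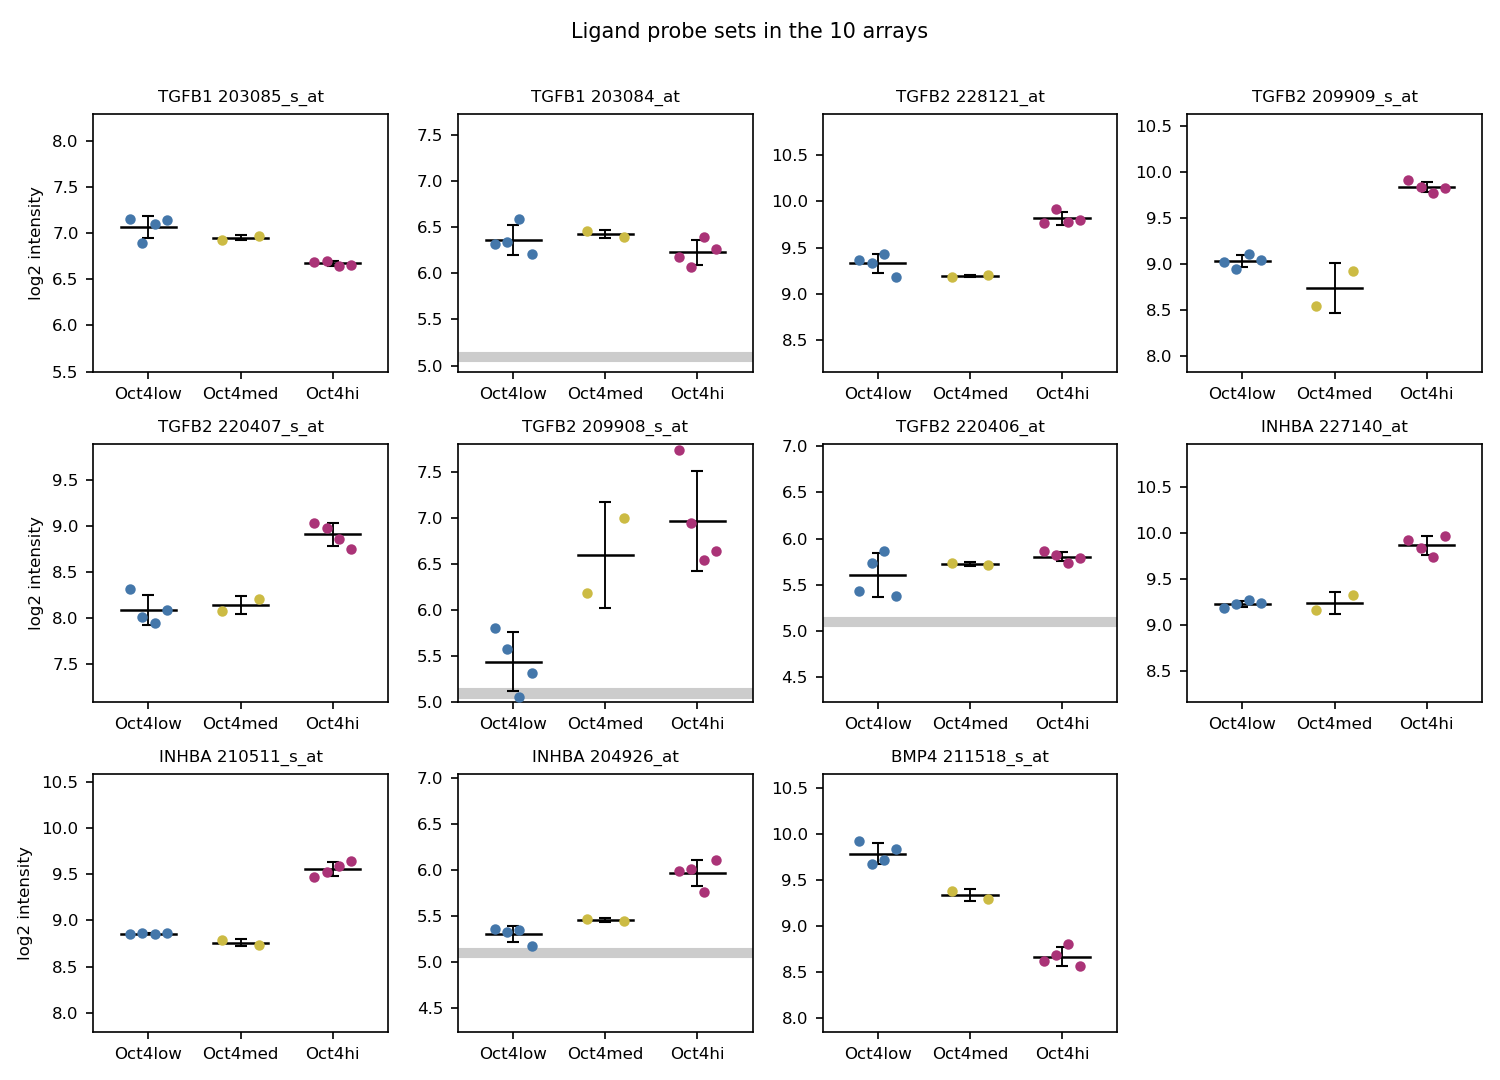
Each panel shows 1 ligand probe set, with the log2 intensity on the vertical axis (all axes span the same number of log2 units) and the subset on the horizontal axis. Points are arrays (4 Oct4low, 2 Oct4med, 4 Oct4hi), horizontal lines are means, bars are SD, and the grey band, where in range, is the span of the array medians. The Oct4hi arrays lie above all Oct4low arrays for 4 of 5 TGFB2 and 3 of 3 INHBA probe sets, and below them for BMP4 and TGFB1 203085_s_at.

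Of the ligands, INHBA encodes the βA subunit that forms activin A. Its probe set 210511_s_at read 8.85, 8.86, 8.85 and 8.86 in the 4 Oct4low arrays, 8.79 and 8.73 in the 2 Oct4med arrays, and 9.47, 9.53, 9.59 and 9.64 in the 4 Oct4hi arrays. The Oct4hi arrays stood apart from all others (SD 0.01 within Oct4low and 0.07 within Oct4hi BCCs, n = 4 each), while Oct4med arrays lay just under Oct4low. The log2 change was 0.70 ± 0.07 (SE) in Oct4hi against Oct4low BCCs (adjusted p = 1.26e-05) and 0.80 ± 0.08 against Oct4med (adjusted p = 3.6e-05). Oct4med and Oct4low BCCs differed by -0.09 on the log2 scale (95% interval -0.27 to 0.08, adjusted p = 0.427).

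The second INHBA probe set, 227140_at, read 9.19, 9.23, 9.27 and 9.24 in Oct4low, 9.16 and 9.33 in Oct4med, and 9.92, 9.84, 9.74 and 9.97 in Oct4hi arrays. The third, 204926_at, read 5.36, 5.32, 5.35 and 5.17 in Oct4low, 5.47 and 5.44 in Oct4med, and 5.99, 6.01, 5.76 and 6.10 in Oct4hi arrays. Its Oct4low values lay near the array medians. Both probe sets put every Oct4hi array above every array of the other subsets. Their changes in Oct4hi against Oct4low BCCs were 0.63 (adjusted p = 8.06e-05) and 0.66 (adjusted p = 0.000144). Against Oct4med they were 0.63 (adjusted p = 0.000537) and 0.51 (adjusted p = 0.0042), and the last was lost with the methods' t-test, a plain two-sample test of each probe set without the variance model that the study used with it (adjusted p = 0.0635). It cannot stand for the test of the study. Neither passed between Oct4med and Oct4low BCCs (0.01 and 0.16 on the log2 scale). The 3 INHBA probe sets gave the same calls, with Oct4hi above both other subsets and no call between those.

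TGFB2 encodes the TGFβ2 ligand, and 3 of its 5 probe sets were higher in Oct4hi BCCs than in both other subsets. The probe set 209909_s_at read 9.02, 8.95, 9.11 and 9.04 in Oct4low, 8.55 and 8.93 in Oct4med, and 9.91, 9.84, 9.77 and 9.83 in Oct4hi arrays. The probe set 220407_s_at read 8.31, 8.01, 7.94 and 8.08 in Oct4low, 8.07 and 8.21 in Oct4med, and 9.03, 8.98, 8.86 and 8.75 in Oct4hi arrays. In both, no Oct4hi array overlapped another subset. The brightest tested probe set, 228121_at, read 9.37, 9.33, 9.43 and 9.18 in Oct4low, 9.18 and 9.20 in Oct4med, and 9.77, 9.92, 9.78 and 9.80 in Oct4hi arrays. Its Oct4hi arrays were again above all others, and the Oct4med pair lay at the bottom of the Oct4low range.

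In Oct4hi against Oct4low BCCs, these 3 TGFB2 probe sets rose by 0.81 ± 0.09 (adjusted p = 4.22e-05), 0.82 ± 0.09 (adjusted p = 7.56e-05) and 0.49 ± 0.07 (adjusted p = 0.00049) on the log2 scale (SE). Against Oct4med BCCs they rose by 1.10 (adjusted p = 2.76e-05), 0.76 (adjusted p = 0.000717) and 0.62 (adjusted p = 0.000575). None passed between Oct4med and Oct4low BCCs. For 209909_s_at, the difference there was -0.29 (adjusted p = 0.0734), and it passed without Oct4med replicate 2 (-0.48, adjusted p = 0.013).

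The TGFB2 probe set 209908_s_at was higher than in Oct4low BCCs in both other subsets. It read 5.80, 5.58, 5.06 and 5.32 in Oct4low, 6.19 and 7.0 in Oct4med, and 7.74, 6.94, 6.54 and 6.64 in Oct4hi arrays. The Oct4low values lay near the array medians, and 3 of these 4 arrays reached theirs. Both Oct4med arrays lay above all Oct4low arrays, and they overlapped with Oct4hi arrays. Its rise in Oct4hi against Oct4low BCCs was the largest rise of the 15 tested probe sets, 1.52 ± 0.26 on the log2 scale (SE, adjusted p = 0.000916), with a wide spread (SD 0.54 in Oct4hi, n = 4). In Oct4med against Oct4low BCCs it was 1.16 ± 0.31 (adjusted p = 0.0225). That call was lost without Oct4med replicate 2 (0.75, adjusted p = 0.183) or Oct4low replicate 3 (1.03, adjusted p = 0.0592), and under 6 of 19 alternatives in all. The others were the intensity trend with a robust prior (adjusted p = 0.0515), array quality weights (adjusted p = 0.062), the replicate block (adjusted p = 0.0787) and the methods' t-test (adjusted p = 0.136). Oct4hi and Oct4med BCCs differed by 0.37 (95% interval -0.31 to 1.05, adjusted p = 0.399). The fifth probe set, 220406_at, read 5.38 to 5.87 in Oct4low, 5.71 and 5.74 in Oct4med, and 5.74 to 5.86 in Oct4hi arrays. It overlapped between Oct4low and the other subsets and passed in no comparison (0.20 in Oct4hi against Oct4low BCCs, adjusted p = 0.165, which became 0.29 with adjusted p = 0.0379 without Oct4low replicate 3). Differences between probe sets of 1 gene were not tested.

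BMP4, a ligand of the BMP branch, fell from subset to subset as GFP rose. Its probe set 211518_s_at read 9.92, 9.67, 9.72 and 9.83 in Oct4low, 9.38 and 9.29 in Oct4med, and 8.62, 8.68, 8.80 and 8.57 in Oct4hi arrays. The 3 subsets did not overlap, with Oct4med in between. BMP4 fell by 1.12 ± 0.08 on the log2 scale in Oct4hi against Oct4low BCCs (SE, adjusted p = 1.68e-06) and by 0.67 ± 0.10 against Oct4med (adjusted p = 0.000599). The step from Oct4low to Oct4med was -0.45 ± 0.10 (adjusted p = 0.00768). It was lost without Oct4med replicate 2 (-0.41, adjusted p = 0.0548) and with the methods' t-test (adjusted p = 0.0667).

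TGFB1 encodes TGFβ1. Its probe set 203085_s_at read 7.15, 6.89, 7.10 and 7.14 in Oct4low, 6.93 and 6.97 in Oct4med, and 6.69, 6.70, 6.64 and 6.66 in Oct4hi arrays. The Oct4hi arrays were below all others, and the Oct4med pair overlapped with Oct4low. The log2 change was -0.40 ± 0.07 in Oct4hi against Oct4low BCCs (SE, adjusted p = 0.00167). Against Oct4med it was -0.28 (adjusted p = 0.04), and this call was lost without either Oct4med array (adjusted p = 0.135 and 0.119) or any 1 of the 4 Oct4hi arrays (adjusted p from 0.0643 to 0.073). It was also lost with no filter (adjusted p = 0.102), a common median (0.101), array quality weights (0.0969) and the replicate block (0.0947), and so under 10 of 19 alternatives. The probe set 203084_at read 6.32, 6.34, 6.59 and 6.21 in Oct4low, 6.46 and 6.40 in Oct4med, and 6.18, 6.07, 6.40 and 6.26 in Oct4hi arrays. The 3 subsets overlapped, and it passed in no comparison (-0.14 in Oct4hi against Oct4low BCCs, 95% interval -0.35 to 0.07).

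**Figure D2:**
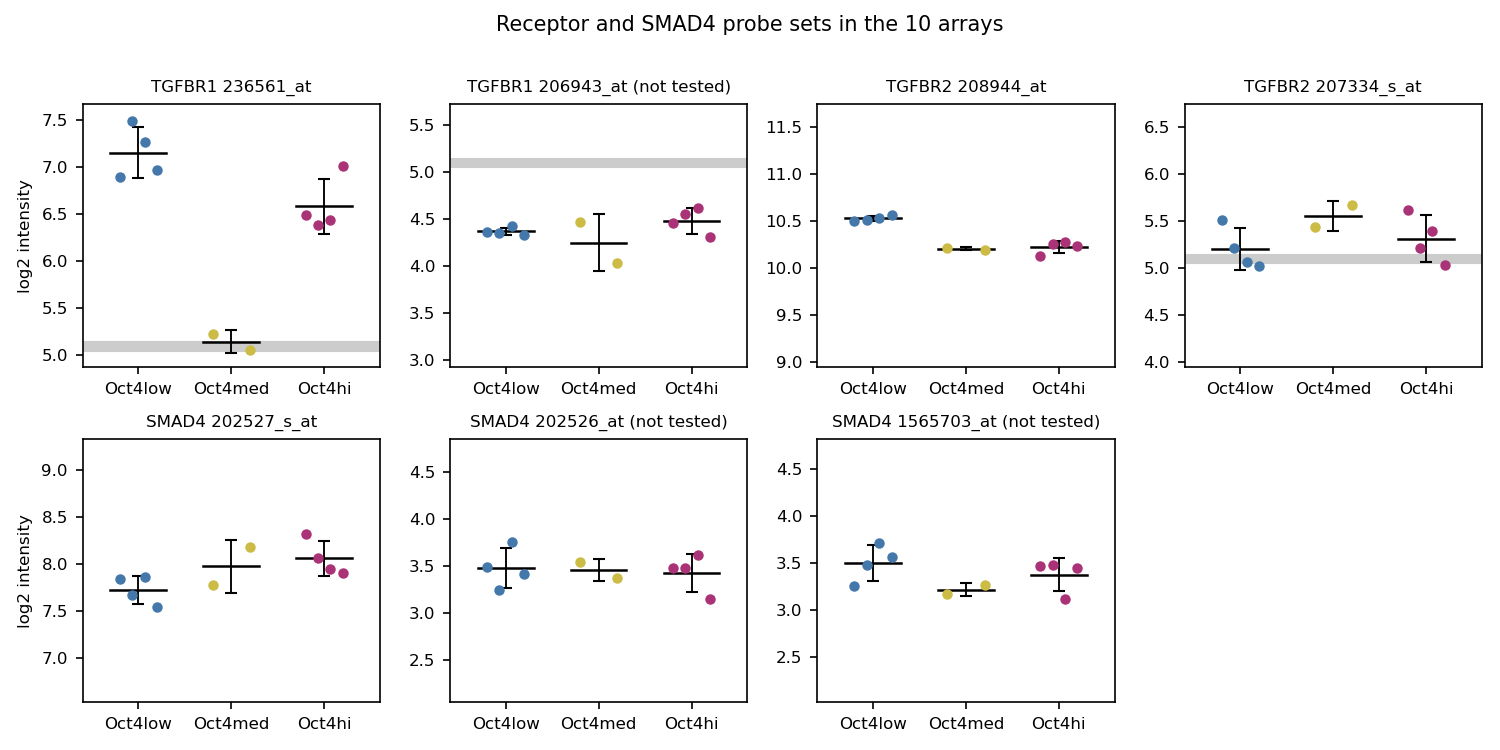
Each panel shows 1 probe set of a receptor gene or of SMAD4, drawn as for the ligands: log2 intensity on the vertical axis, subsets on the horizontal axis, points for arrays, lines for means, bars for SD and a grey band for the array medians. The Oct4med arrays of TGFBR1 236561_at lie at 5.23 and 5.06, below every other array, and TGFBR2 208944_at sets Oct4low above both other subsets.

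Of the receptors, TGFBR1 encodes the type I kinase. Its tested probe set 236561_at read 6.90, 7.49, 7.27 and 6.97 in Oct4low, 5.23 and 5.06 in Oct4med, and 6.49, 6.39, 6.44 and 7.02 in Oct4hi arrays. The Oct4med pair lay far below both other subsets, within reach of the array medians, while Oct4hi replicate 4 overlapped with Oct4low. In Oct4med BCCs the log2 change from Oct4low was -2.01 ± 0.19 (SE, adjusted p = 2.82e-05). Oct4hi BCCs were 1.44 ± 0.19 above Oct4med (adjusted p = 0.000251). Only 1 of the 2 Oct4med arrays reached its array median, and no detection calls were used here, so how far these values stand above background is not known. Against Oct4low, Oct4hi BCCs fell by 0.57 ± 0.15 (adjusted p = 0.013), which did not pass with the methods' t-test (adjusted p = 0.0832). The probe set 206943_at read 4.33 to 4.42 in Oct4low, 4.03 and 4.46 in Oct4med, and 4.30 to 4.61 in Oct4hi arrays, below all array medians. It was outside the main test. With no filter, its log2 change was -0.12 in Oct4med against Oct4low BCCs (adjusted p = 0.589) and 0.11 in Oct4hi against Oct4low BCCs (adjusted p = 0.548). In Oct4hi against Oct4med BCCs it was 0.23 (adjusted p = 0.25). The differences of TGFBR1 thus rest on 1 probe set, and the other did not show them.

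TGFBR2 encodes the type II kinase that binds TGFβ ligands. The probe set 208944_at read 10.50, 10.51, 10.53 and 10.56 in Oct4low, 10.21 and 10.19 in Oct4med, and 10.12, 10.25, 10.27 and 10.23 in Oct4hi arrays. Every Oct4low array was above every array of the other subsets, which overlapped with each other. The log2 change was -0.31 ± 0.06 in Oct4hi against Oct4low BCCs (SE, adjusted p = 0.00338) and -0.33 ± 0.08 in Oct4med (adjusted p = 0.0132). The Oct4med call was lost with the replicate block (-0.30, adjusted p = 0.081). It was also lost without Oct4med replicate 1 (-0.34) or replicate 2 (-0.32). Oct4hi and Oct4med BCCs differed by 0.02 (95% interval -0.16 to 0.19, adjusted p = 0.891). The probe set 207334_s_at, near the array medians, read 5.51, 5.21, 5.06 and 5.02 in Oct4low, 5.44 and 5.67 in Oct4med, and 5.62, 5.21, 5.39 and 5.03 in Oct4hi arrays. These overlapped, and it passed in no comparison (0.35 in Oct4med against Oct4low BCCs, 95% interval -0.01 to 0.71).

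SMAD4 was read by 202527_s_at at 7.84, 7.67, 7.86 and 7.54 in Oct4low, 7.78 and 8.18 in Oct4med, and 8.32, 8.07, 7.95 and 7.91 in Oct4hi arrays. The Oct4hi arrays lay above the Oct4low arrays by a narrow margin, and the Oct4med pair spanned both. The log2 change was 0.33 ± 0.12 in Oct4hi against Oct4low BCCs (SE, adjusted p = 0.0426). It was lost without Oct4low replicate 2 (0.32, adjusted p = 0.0952), Oct4low replicate 4 (0.27, adjusted p = 0.122), Oct4hi replicate 1 (0.25, adjusted p = 0.13) or Oct4hi replicate 2 (0.33, adjusted p = 0.0854). It was also lost with no filter (adjusted p = 0.06), the methods' t-test (0.0853) and the replicate block (0.0551), and so under 7 of 19 alternatives. Across the 3 subsets the F-test gave an adjusted p of 0.0774. The probe sets 202526_at and 1565703_at were below all array medians in all 3 subsets.

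**Figure D3:**
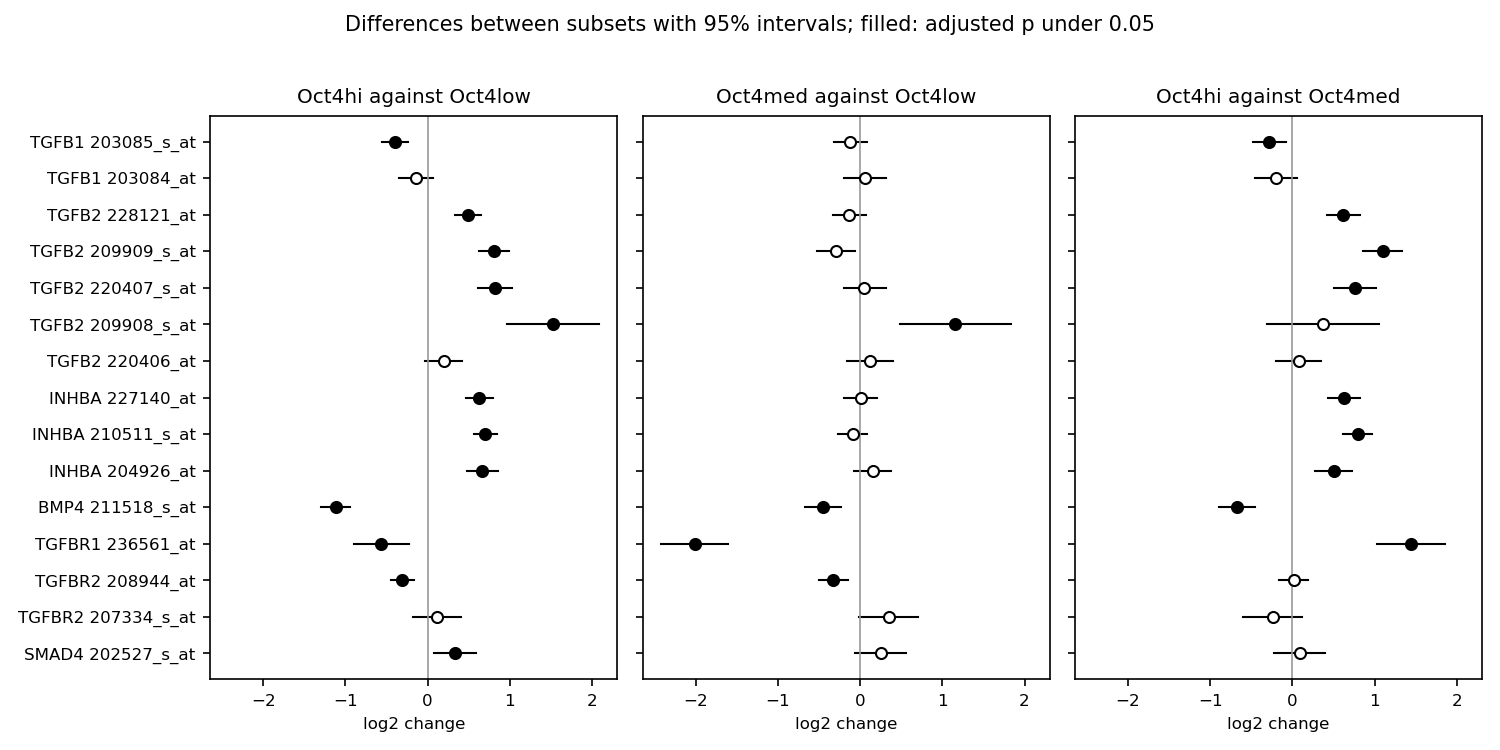
The log2 change (horizontal axis) of the 15 tested probe sets (vertical axis) is drawn in 3 panels, 1 for each pair of subsets, with 95% intervals as lines and filled points for an adjusted p under 0.05. From left to right 12, 4 and 9 points are filled, and the change of -2.01 for TGFBR1 236561_at in Oct4med BCCs is the largest in size.

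Between Oct4med and Oct4low BCCs, 4 of the 7 genes differed in 1 probe set each. TGFBR1, BMP4 and TGFBR2 were lower, and TGFB2 209908_s_at was higher. These are 4 of 15 tested probe sets (26.7%), against 20.7% of all tested probe sets, of which 5.19% were higher and 15.5% lower. A share this near to that of all probe sets is no result about the 7 genes, and it fell to 2 of 15 without Oct4med replicate 2. The median size of the change was 0.16 over the 15 and 0.18 over all tested probe sets. The arrays did not overlap for 7 of the 15, against 40.5% of all tested probe sets. No INHBA or TGFB1 probe set passed. Of the markers, HBE1 was higher in Oct4med BCCs, and 2 luminal markers, CD14 of the leukocyte list and COL1A1 of the stromal list were lower; their part in these differences was not tested.

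Between Oct4hi and Oct4med BCCs, TGFB2 and INHBA rose again in 3 probe sets each, TGFBR1 rose in 1, and BMP4 and TGFB1 fell in 1 each. This made 9 of 15 tested probe sets (60%), 7 higher and 2 lower, against 26.8% of all tested probe sets, with 18.2% higher and 8.61% lower. The arrays did not overlap for 10 of the 15, against 45.2% of all. The median size of the change was 0.51 over the 15 and 0.21 over all tested probe sets. With the F-test across the 3 subsets, 11 of the 15 passed, against 44.5% of all tested probe sets. The comparisons share arrays, so these counts are not independent of each other. As the 7 genes were chosen with earlier results of these data known, the counts are no test of them as a group. Of the markers, CD44 and ANXA1 of the line and ESR1, GATA3 and MLPH of the luminal list were lower in Oct4hi than in Oct4med BCCs, and TFF1 was higher. Their part in these differences was not tested.

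The rest of the pathway was read through 8 lists of genes by role, each gene by its brightest tested probe set. The lists too were chosen with earlier results of these data known. Beside the 7 genes, the lists hold 114 genes, of which 87 are in the table and 63 were tested. In Oct4hi against Oct4low BCCs 12 of the 63 rose and 16 fell, while 35.2% of all tested genes passed (20.4% higher and 14.8% lower). In Oct4med against Oct4low BCCs 4 rose and 19 fell, against 17.4% of all genes past the threshold (5.68% higher and 11.7% lower), and in Oct4hi against Oct4med BCCs 20 rose and 6 fell, against 27.8% (18.2% and 9.63%). Over the 63 genes the median log2 changes were -0.07, -0.11 and 0.10, beside 0.02, 0.03 and -0.01 over all tested genes. With the values quantile normalized again, the 70 genes that include the members gave 17 higher and 10 lower in Oct4hi against Oct4med BCCs, in place of 23 and 8.

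Among the 7 other tested ligands, 1 rose and 1 fell in Oct4hi against Oct4low BCCs. INHBE, the activin βE subunit gene, had mean levels of 6.83 in Oct4low, 7.69 in Oct4med and 7.99 in Oct4hi arrays, and the log2 change was 1.16 in Oct4hi (adjusted p = 2.86e-06) and 0.85 in Oct4med (adjusted p = 0.000227) against Oct4low. GDF15, a divergent member of the family, fell by 0.58 in Oct4hi against Oct4low BCCs (adjusted p = 0.000217) and by 0.96 against Oct4med (adjusted p = 3.46e-05). INHBB encodes the activin βB subunit, and its arrays read 9.78 to 9.88 in Oct4low, 8.99 and 9.17 in Oct4med, and 9.77 to 9.89 in Oct4hi samples. It was lower in Oct4med BCCs, by -0.77 on the log2 scale against Oct4low (adjusted p = 8.45e-05), while Oct4hi and Oct4low BCCs differed by -0.01 (adjusted p = 0.898). In Oct4med against Oct4low BCCs 2 of the 7 rose and 1 fell, and in Oct4hi against Oct4med 1 rose and 1 fell. These are 28.6%, 42.9% and 28.6% of the 7 in the 3 comparisons, against 35.2%, 17.4% and 27.8% of all tested genes. A list this small gives no result about ligands as a group.

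Of the 10 other receptors and coreceptors tested, 1 rose and 2 fell in Oct4hi against Oct4low BCCs, 1 rose and 1 fell in Oct4med against Oct4low, and 1 rose and 3 fell in Oct4hi against Oct4med. These are 30%, 20% and 40% of the 10, against 35.2%, 17.4% and 27.8% of all tested genes. Shares this near to those of all genes are no result about receptors. TGFBR3, the coreceptor betaglycan that presents TGFβ2 to TGFBR2, fell by 0.44 in Oct4hi against Oct4low BCCs (adjusted p = 0.000387) and by 0.50 against Oct4med (adjusted p = 0.000967), in both of its tested probe sets. Of the 5 other SMAD genes tested, 1 rose and 1 fell in Oct4hi against Oct4low BCCs, 1 fell in Oct4med against Oct4low, and 2 rose in Oct4hi against Oct4med. These are 40%, 20% and 40% of the 5, against the same shares of all tested genes as above. SMAD5, which carries BMP signals, rose by 0.30 in Oct4hi against Oct4low BCCs (adjusted p = 0.0187, shared by 2 of 3 tested probe sets), and this was lost without Oct4hi replicate 1 (0.24, adjusted p = 0.063). SMAD7, which inhibits type I receptors, fell by 0.67 in Oct4med against Oct4low BCCs (adjusted p = 0.00114). Its fall of 0.29 in Oct4hi against Oct4low BCCs (adjusted p = 0.0223) was lost with a common median (-0.26, adjusted p = 0.0551). It was also lost without Oct4low replicate 4 (adjusted p = 0.0655), Oct4hi replicate 1 (adjusted p = 0.0636) or Oct4hi replicate 3 (adjusted p = 0.0596).

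The 4 tested genes of ligand latency and activation included LTBP1, which tethers latent TGFβ to the matrix. It fell by 0.50 in Oct4hi against Oct4low BCCs (adjusted p = 0.000679), in 1 of its 2 tested probe sets, and with LTBP3 it was 1 of 2 of these genes that fell there. THBS1, which encodes thrombospondin and can activate latent TGFβ, fell by 0.67 in Oct4med against Oct4low BCCs (adjusted p = 0.00156, shared by 4 of 5 tested probe sets), a call lost with the methods' t-test (adjusted p = 0.0793). LTBP3 passed there too (-0.30, adjusted p = 0.0398), but not under 14 of 19 alternatives. In Oct4hi against Oct4med BCCs 1 of the 4 genes rose and 1 fell. Of 5 extracellular antagonists 1 fell in Oct4hi against Oct4low BCCs, namely FST, which encodes follistatin and binds activin: the change was -0.40 (adjusted p = 0.00213). None of the 5 passed in Oct4med against Oct4low BCCs, and in Oct4hi against Oct4med 1 rose and 1 fell. Of 10 intracellular regulators 2 rose and 3 fell in Oct4hi against Oct4low BCCs, 1 rose and 3 fell in Oct4med against Oct4low, and 1 rose in Oct4hi against Oct4med. The largest change among them was that of STRAP, a protein that binds the TGFβ receptors, at -0.53 in Oct4hi (adjusted p = 0.00651) and -0.91 in Oct4med BCCs (adjusted p = 0.00144) against Oct4low. Of all tested genes 35.2% passed in Oct4hi against Oct4low, 17.4% in Oct4med against Oct4low and 27.8% in Oct4hi against Oct4med BCCs. Beside these shares, lists of 4, 5 and 10 genes give no result about a role.

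**Figure D4:**
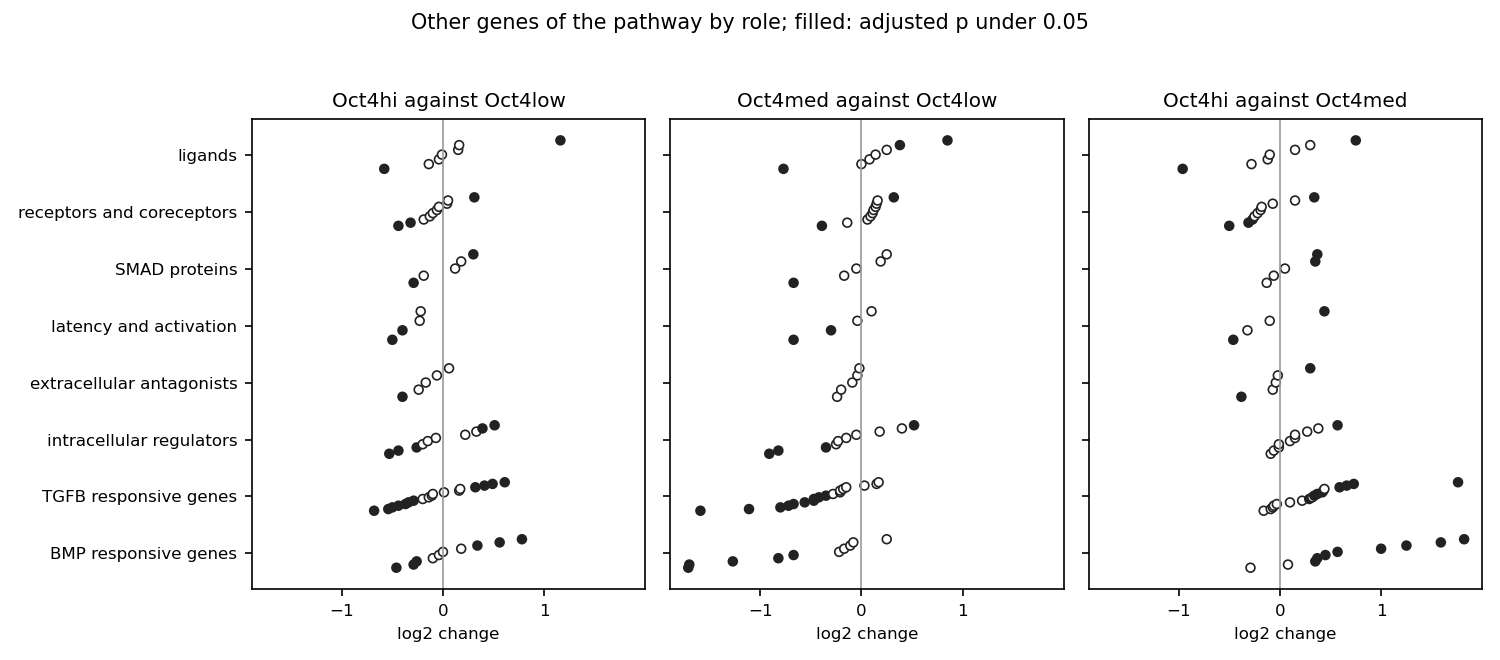
The log2 change (horizontal axis) of the other tested pathway genes is shown by role list (vertical axis) for the 3 pairs of subsets, with filled points for an adjusted p under 0.05 and a small vertical offset so that points can be told apart. The 2 lists of responsive genes lie mostly to the left in Oct4med against Oct4low and to the right in Oct4hi against Oct4med BCCs.

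Of 18 tested genes that TGFβ is known to induce or repress, 4 rose and 7 fell in Oct4hi against Oct4low BCCs, none rose and 10 fell in Oct4med against Oct4low, and 9 rose and none fell in Oct4hi against Oct4med. Of all tested genes 20.4% were higher and 14.8% lower in the first comparison, 5.68% and 11.7% in the second, and 18.2% and 9.63% in the third. The last count of the list was 5 higher and none lower without Oct4med replicate 1, and 6 higher and 1 lower with the values quantile normalized again. In Oct4hi against Oct4low BCCs, the largest changes were those of HMGA2, a chromatin protein (-0.68, adjusted p = 0.000149), NEDD9, an adhesion scaffold (0.61, adjusted p = 0.000391), ANGPTL4, a secreted factor (-0.54, adjusted p = 0.000809), and TSC22D1, a transcription regulator (-0.50, adjusted p = 0.000176). The call was shared by 2 of 4 tested probe sets of NEDD9, 1 of 2 of ANGPTL4, 2 of 3 of TSC22D1 and 2 of 2 of HMGA2. SNAI2, a transcription factor of epithelial-mesenchymal transition, read 10.57 to 10.76 in Oct4low, 9.03 and 9.10 in Oct4med, and 10.79 to 10.87 in Oct4hi arrays. It was lower in Oct4med than in Oct4low BCCs by -1.59 on the log2 scale (adjusted p = 2.21e-07).

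Of 10 tested genes that BMPs are known to induce, 3 rose and 3 fell in Oct4hi against Oct4low BCCs, none rose and 5 fell in Oct4med against Oct4low, and 8 rose and none fell in Oct4hi against Oct4med. These are 6, 5 and 8 of the 10, beside 35.2%, 17.4% and 27.8% of all tested genes past the threshold. ID1, ID2 and ID3, which encode inhibitors of DNA binding, had their lowest values in Oct4med BCCs. ID1 read 11.45 to 11.63 in Oct4low, 9.83 and 9.86 in Oct4med, and 11.39 to 11.48 in Oct4hi arrays. MSX2, a homeobox gene, rose by 0.78 in Oct4hi against Oct4low BCCs (adjusted p = 4.57e-05), ID2 rose by 0.56 (adjusted p = 0.00164), HEY1, a transcription repressor, rose by 0.34 (adjusted p = 0.0032), and ID3 fell by 0.46 (adjusted p = 0.000328). BMP4 itself lay between the other subsets in Oct4med BCCs. TGFBR1 236561_at had its lowest values there, and the other TGFBR1 probe set did not pass. Of all tested probe sets, 15.5% were lower in Oct4med than in Oct4low BCCs. Whether BMP4 or TGFBR1 has a part in the levels of the responsive genes was not tested. Genes of 2 lists, such as BAMBI and SMAD7, count in both.

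By the smallest root mean square difference of centred log2 values over the 10 arrays, the 2 genes nearest to the brightest tested probe set of each gene were OPTN and SEPHS1 for TGFB1 (0.06 each), CCDC22 (0.04) and GINS1 (0.06) for TGFB2, PGM2L1 (0.05) and DDR2 (0.06) for INHBA, and FAM20C and TRIB2 for BMP4 (0.10 each). They were GPATCH2L and CYTOR for TGFBR1 (0.16 each), NDRG3 and FHOD1 for TGFBR2 (0.04 each), and TSPAN12 and NEDD1 for SMAD4 (0.06 each). The profile of TGFBR1 had the largest size (0.77) and that of TGFBR2 the smallest (0.16).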

How the data were processed

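Total RNA (100 ng per array) of sorted MDA-MB-231 cells was hybridized to 10 Affymetrix arrays (4 Oct4low, 2 Oct4med, 4 Oct4hi). According to the methods of the study and the submitters' processing notes, the authors background-corrected, log2-transformed and RMA normalized the intensities and left out features near background or with little change. The deposited values are log2 intensities between 2.37 and 14.46 for 25750 probe sets. Only 11556 of these lay at least 1.2-fold from their own median in 2 or more arrays. Read that way, the described filter on change does not account for the deposited set. RMA draws large ratios together, and the shares of genes that passed depend on which features were left in.

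Groups were taken from the sample titles. Probe sets at or above the median of their array in at least 2 arrays were tested (13872; 23 control probe sets were left out) with limma 3.58.1 in R 4.3.3, as a model with a mean for each subset. P-values are two-sided, with Benjamini-Hochberg adjustment across these 13872 probe sets. The script was tested on simulated data. Alternatives were no filter, a filter at the 75th percentile, renormalization by quantiles or to a common median, an intensity trend with a robust prior, array quality weights, only the subsets compared, a plain two-sample test of each probe set (the methods' t-test, here without the random variance model of the study, so that it does not stand for the study's own test), the replicate number as a block, and leaving out each array.

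The 7 genes and the 8 role lists were chosen with earlier results of these data known. By rule, all 18 probe sets are named, and of each role list up to 4 genes past the threshold by size of change in a comparison. Of the latter the text gives a part. The platform annotation gave 18683 probe sets 1 symbol, 799 several and 6268 none. Promoter windows are from RefSeq, GRCh38.p14. The 10 arrays limit the precision, and the 2 Oct4med arrays limit it most.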

Additional observations from a re-analysis of the deposited data

Results flagged for a closer look

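In 3 of 36 groups of 4 arrays, 1 array lay apart from the other 3 by Dixon's criterion, where chance gives 1.8 groups at 1 in 20. For TGFB2 228121_at, Oct4hi replicate 2 read 9.92 and the others 9.77 to 9.80, a gap of 0.85 of the range. For TGFBR1 236561_at, Oct4hi replicate 4 read 7.02 and the others 6.39 to 6.49, a gap of 0.84 of the range, and this array alone overlapped with Oct4low. For SMAD4 1565703_at, a probe set below the array medians, Oct4hi replicate 3 read 3.12 and the others 3.45 to 3.48, a gap of 0.91 of the range.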

How the results depend on the processing

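Over the 3 comparisons 25 tests of the 7 genes passed and 20 did not, and 18 of the 25 passed under all 19 alternatives that could be run for them. None of the 25 reversed, and 2 of the 20 others passed under some alternative. Without 1 array each in turn, the count of the 15 probe sets past the threshold ranged from 11 to 13 in Oct4hi against Oct4low, from 2 to 4 in Oct4med against Oct4low and from 8 to 9 in Oct4hi against Oct4med BCCs. The pathway genes ranged from 16 to 26 in Oct4med against Oct4low (16 without Oct4med replicate 2) and from 20 to 33 in Oct4hi against Oct4med BCCs (20 without Oct4med replicate 1). All tested probe sets ranged from 1522 to 2807 (main 2865) and from 1425 to 3885 (main 3713) in these comparisons, both lowest without Oct4med replicate 1. With the methods' t-test, 2 member probe sets and 1111 probe sets in all passed in Oct4med against Oct4low, and 1866 in all in Oct4hi against Oct4med BCCs. Array quality weights gave 1852 in Oct4med against Oct4low BCCs. The methods describe separate experiments with cells sorted into the subsets, so arrays of different subsets may share an experiment. The labels do not say whether replicate numbers mark shared sorts, and the main model treated the samples as unpaired. Same-numbered arrays had correlations of their deviations between -0.264 and 0.277, and arrays with different numbers reached -0.508 and 0.508. With so few arrays in each subset, these correlations cannot show whether the samples are paired. With the replicate number as a block, 2 member probe sets and 1553 probe sets in all passed in Oct4med against Oct4low, and 2231 in all in Oct4hi against Oct4med BCCs.

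Differences that turned direction had not passed. In Oct4med against Oct4low BCCs these were TGFB2 220407_s_at (-0.03 with the replicate block, and -0.02 to 0.13 without 1 array, lowest without Oct4med replicate 2) and INHBA 227140_at (-0.08 to 0.09 without 1 array, below 0 without Oct4low replicate 1 at -0.01 and Oct4med replicate 2 at -0.08). In Oct4hi against Oct4med BCCs they were TGFB2 209908_s_at (-0.03 to 0.77 without 1 array, lowest without Oct4med replicate 1), TGFBR2 208944_at (-0.13 when quantile normalized again, -0.01 with the replicate block, and -0.0009 to 0.05 without 1 array, lowest without Oct4hi replicate 3) and SMAD4 202527_s_at (-0.04 when quantile normalized again, and -0.11 to 0.29 without 1 array, lowest without Oct4med replicate 1). The cause was not tested. When quantile normalized again, all tested probe sets split into 1385 higher and 1809 lower in Oct4med against Oct4low, in place of 720 and 2145, and into 1718 and 1620 in Oct4hi against Oct4med BCCs, in place of 2518 and 1195. The counts of the responsive genes under each alternative were added after the data were seen.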
